A study of Mus musculus with 2 samples.

Results

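Bile acids are made from cholesterol in hepatocytes and are the main route by which the body disposes of cholesterol. In the classic pathway CYP7A1 adds a hydroxyl group to the sterol ring in the rate-limiting first step, and CYP8B1 adds another on the branch that leads to cholic acid. In the alternative pathway CYP27A1 first oxidises the side chain and CYP7B1 then hydroxylates the ring. Both pathways share enzymes that finish the ring (HSD3B7, AKR1D1) and peroxisomal enzymes that shorten the side chain (AMACR, ACOX2). For conjugation, SLC27A5 activates bile acids with coenzyme A and BAAT attaches taurine or glycine. The 10 genes of these enzymes were chosen by name, with earlier results of these data known. All 10 were among the 18193 genes named by a single symbol in the array annotation and among the 12634 that were analysed. They had 16 probe sets, of which 14 lay above the floor defined next on at least 1 array.

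Messenger RNA was measured on an Affymetrix mouse array of BALB/c nude mice, which lack a thymus, from samples of the whole liver. The labels name 1 sample at day 0, marked as the control, and 1 sample at day 3, both from a protocol of surgical removal of 70% of the liver. Whether each sample holds RNA of 1 animal or of a pool is not stated, and a sham operation was not analysed here. With 1 array a day there is no spread between samples, no test of any difference was possible, and the day, the operation and the animal cannot be told apart.

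The values are MAS5 signals on a linear scale in arbitrary units. The larger of both array medians, 68.3, served as a floor to which every lower signal was raised, and a gene counts as higher or lower when its brightest probe set differs at least 2-fold. Ratios are day 3 over day 0. Levels are compared only within a probe set, since probe sets of different genes differ in brightness for reasons other than abundance. Among all analysed genes the median log2 ratio was 0.08, 5.62% were lower at day 3 and 12.9% were higher. Probe sets of 1 gene differed in log2 ratio with an SD of 0.33 per probe set in the brightest tertile of genes (n = 1460 genes), which covers differences between probe sets and not between animals.

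The hepatocyte identity of the tissue was clear on both arrays. All 10 measured hepatocyte markers, Alb and Ttr among them, were above the floor on both days, and their summed signal at day 3 was 0.808 times that at day 0. Their log2 ratios ran from −0.96 (Fah) to 0.00 with a median of −0.33, and the median was 0.09 after quantile normalisation. The summed signal of 9 measured stellate cell and fibroblast markers was 8239 at day 0 and 29454 at day 3, with 7 and 9 of them above the floor. Of these 9, 6 passed 2-fold upwards and none downwards, while Lrat and Dcn had log2 ratios of 0.28 and 0.34. The summed signal of 10 Kupffer cell and macrophage markers was 9261 and 23528, with all 10 above the floor on both days. That of 8 neutrophil markers was 528 and 1545, with 4 above the floor on each day. S100a8 (60.6 and 585) and S100a9 (110 and 550) made up most of the neutrophil rise, while Ngp read 90.0 and 57.7. Of 7 cholangiocyte markers 3 were above the floor at day 0 and 7 at day 3, 4 of them passed 2-fold upwards and none downwards, with a median log2 ratio of 1.28. Their sums, 3138 and 3820, were mostly Aqp1, which read 2854 and 2541. The 10 endothelial markers summed to 10103 and 8254, all above the floor. Their log2 ratios ran from −0.70 (Clec4g) to 0.96 (Pecam1) with a median of 0.03, and 0 passed 2-fold in either direction. Of 9 T and B cell markers 4 were above the floor at day 0 and 3 at day 3 (sums of 1237 and 526). Most of that fall was Ighm (796 and 202), while Cd8a read 70.5 and 100. Other probe sets had log2 ratios of −1.93 to 0.43 for Ighm and −0.24 to 0.51 for Cd8a. In a whole-tissue sample fewer hepatocytes and less RNA per hepatocyte cannot be told apart, and the part of cell composition in the results was not tested. The control RNAs added before labelling had a higher ratio of 3' to 5' signal at day 3 in 8 of 8 probe set pairs (median 2.13 times). Their median log2 ratio was −1.20 at the 5' ends and −0.12 at the 3' ends. The pairs read the RNAs dap, lys, phe and thr repeatedly, so they are not all separate control RNAs. Where the probe sets below lie in their transcripts was not analysed, so the part of labelling quality was not tested. The added RNAs do not measure the state of the liver RNA, and the part of its quality was not tested either.

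Of the 10 genes, 5 were at least 2-fold lower at day 3, 0 were higher and 5 differed by less. Their median log2 ratio was −1.18. The lower genes were the 4 hydroxylases that start or branch the pathways (Cyp7a1, Cyp8b1, Cyp27a1 and Cyp7b1) and Slc27a5 of the conjugation step. The genes of the ring and the side chain stayed within 2-fold, and 3 of those 4 (Akr1d1, Amacr and Acox2) had a slightly higher signal at day 3. The background share of lower genes was 5.62% of all analysed genes, 6.26% of the 6485 genes at least as bright as the dimmest of the 10, and 28.6% of 56 other cytochrome P450 genes, whose median log2 ratio was −0.71. The shares of higher genes in these groups were 12.9%, 7.91% and 12.5%. The dimmest of the 10 was Cyp8b1, whose mean log2 signal of 8.94 includes its floored day 3 value. Next came Cyp7a1 at 10.8, so the second group is not matched in brightness to the 10.

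**Figure D1:**
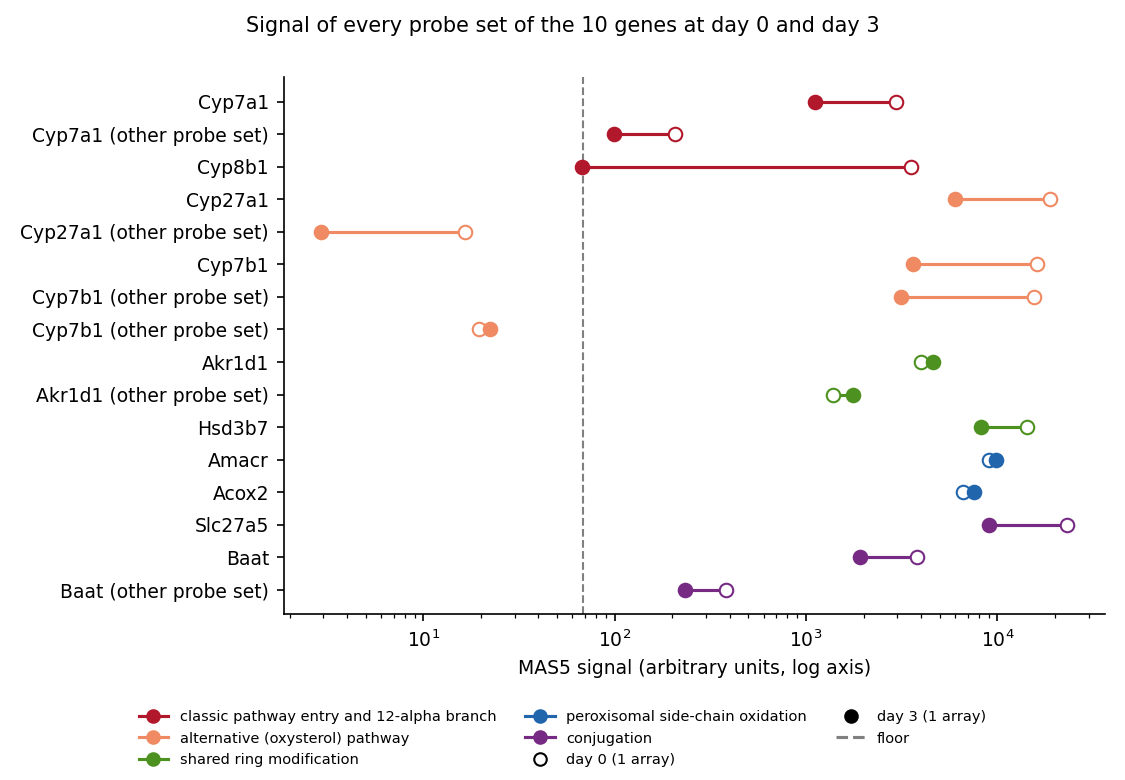
MAS5 signal (log axis, arbitrary units) of all 16 probe sets of the 10 genes, open circles for the day 0 array and filled circles for the day 3 array, coloured by step of the pathway, with the floor as a dashed line. The hydroxylase and conjugation probe sets above the floor lie to the left at day 3, Cyp8b1 from 3545 to 67.4, while the circles of Akr1d1, Amacr and Acox2 nearly coincide.

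Cyp8b1 encodes the 12-alpha-hydroxylase on which cholic acid depends, and it had the lowest ratio of the 10. Its only probe set gave 3545 at day 0 and 67.4 at day 3, which is just under the floor, so the gene was at least 51.9-fold lower. This was the lowest ratio among all 12634 analysed genes. Its rank from the lowest was 2 when the floor was taken at the 25th percentile or left out, and 11 when it was taken at the 75th, where its log2 ratio was −3.06. The gene has no other probe set with which the value could be compared.

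The bases upstream of the Cyp8b1 start are shown because this gene had the lowest ratio, beside those of Akr1d1, the gene with the highest. Each is the 250 bases before the start in RefSeq, on the gene's own strand, build GRCm38.p6: Cyp8b1 at chr9:121916306-121916555 (minus strand) and Akr1d1 at chr6:37529923-37530172 (plus strand). Capitals mark matches to 3 motifs searched on both strands, namely CAAAGTCCA (a core bound by HNF4-type receptors), CAAGGNC (a core bound by LRH-1, the product of Nr5a2) and TATAAA (the TATA box).
Cyp8b1: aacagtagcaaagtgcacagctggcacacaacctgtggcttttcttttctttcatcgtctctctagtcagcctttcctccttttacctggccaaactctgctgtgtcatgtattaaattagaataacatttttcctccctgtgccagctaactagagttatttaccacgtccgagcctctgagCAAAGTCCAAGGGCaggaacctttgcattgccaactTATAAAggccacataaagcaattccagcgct
Akr1d1: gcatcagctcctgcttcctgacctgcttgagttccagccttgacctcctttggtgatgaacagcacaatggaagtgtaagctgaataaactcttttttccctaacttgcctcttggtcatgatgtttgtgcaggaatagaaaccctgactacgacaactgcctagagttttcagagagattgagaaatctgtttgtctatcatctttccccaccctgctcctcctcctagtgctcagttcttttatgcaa
In Cyp8b1 the HNF4-type match spans 67 to 59 bases before the start, the LRH-1 match 60 to 54 bases before it, so that both overlap, and the TATA match 31 to 26 bases before it. The same letters occur in 0.384%, 15.0% and 12.4% of 32851 mouse promoters of this length. Of the 5 genes with a RefSeq promoter here (Cyp8b1, Akr1d1, Cyp27a1, Hsd3b7 and Acox2), only Cyp8b1 held any of the 3. A match describes the letters and is no evidence of binding.

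Cyp7a1, which encodes the enzyme that limits the rate of the classic route, was lower on both of its probe sets. The brighter one read 2961 at day 0 and 1115 at day 3, which is 2.66-fold lower. The dimmer one read 206 and 99.4, which is 2.07-fold lower and close to the floor at day 3. The log2 ratios were −1.41 and −1.05, and 2.31% of analysed genes had a lower ratio than the brighter probe set. Cyp7a1 transcription follows the time of day in rodents, and the labels give no hour of collection. Of 14 analysed circadian clock and clock output genes 7 were lower and 3 higher. The output factor Dbp was 4.51-fold lower, and the repressor genes Cry2 and Ciart were 3.16-fold and 2.89-fold lower. The activator genes Clock and Arntl were 2.85-fold and 2.69-fold higher, with Cry1 2.08-fold higher. Arntl was close to the floor at day 0. Other probe sets of Clock had log2 ratios of 0.68 to 1.09. After quantile normalisation 8 were lower and 2 higher, with Cry1 at a log2 ratio of 0.82, and median centring and loess gave the same counts, while with spike scaling 3 were lower and 4 higher. Whether the hour of collection has a part in the Cyp7a1 difference was not tested.

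The alternative pathway was lower at both of its steps. Cyp27a1, the mitochondrial sterol 27-hydroxylase, which also oxidises the side chain of classic pathway intermediates, went from 18892 to 5993 (3.15-fold lower). Its other probe set was under the floor on both arrays (16.5 and 2.92) and gives no ratio. Cyp7b1, the oxysterol 7-alpha-hydroxylase, went from 16030.5 to 3627 (4.42-fold lower), and a further probe set from 15531 to 3133 (4.96-fold lower). These 2 probe sets agree within the spread between probe sets, and the remaining one was under the floor on both arrays (19.6 and 22.4). Of all analysed genes 1.36% had a lower ratio than Cyp27a1 and 0.594% a lower ratio than Cyp7b1.

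Cyp7b1 is expressed more in male than in female mouse liver, and the labels give no sex. The Y-linked genes Kdm5d, Uty and Eif2s3y were above the floor on both arrays, Eif2s3y at 1386 and 1127, and Xist, the transcript of the inactive X chromosome, read 62.2 and 79.6. Of 8 analysed genes known for higher expression in males, 6 were lower at day 3 and 0 higher (median log2 ratio −1.43). The steroid dehydrogenase gene Hsd3b5 was 36.7-fold lower, the organic anion transporter gene Slco1a1 19.9-fold and the fatty acid hydroxylase gene Cyp4a12a 3.78-fold. Of 5 genes known for higher expression in females, Cyp2b13 was at least 3.78-fold lower, Cyp2b9 2.82-fold lower and Prom1, which also marks progenitor cells, at least 93.0-fold higher. The Cyp7b1 value thus stands beside lower signals of most genes measured in the male-biased list, and a shared cause was not tested.

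**Figure D2:**
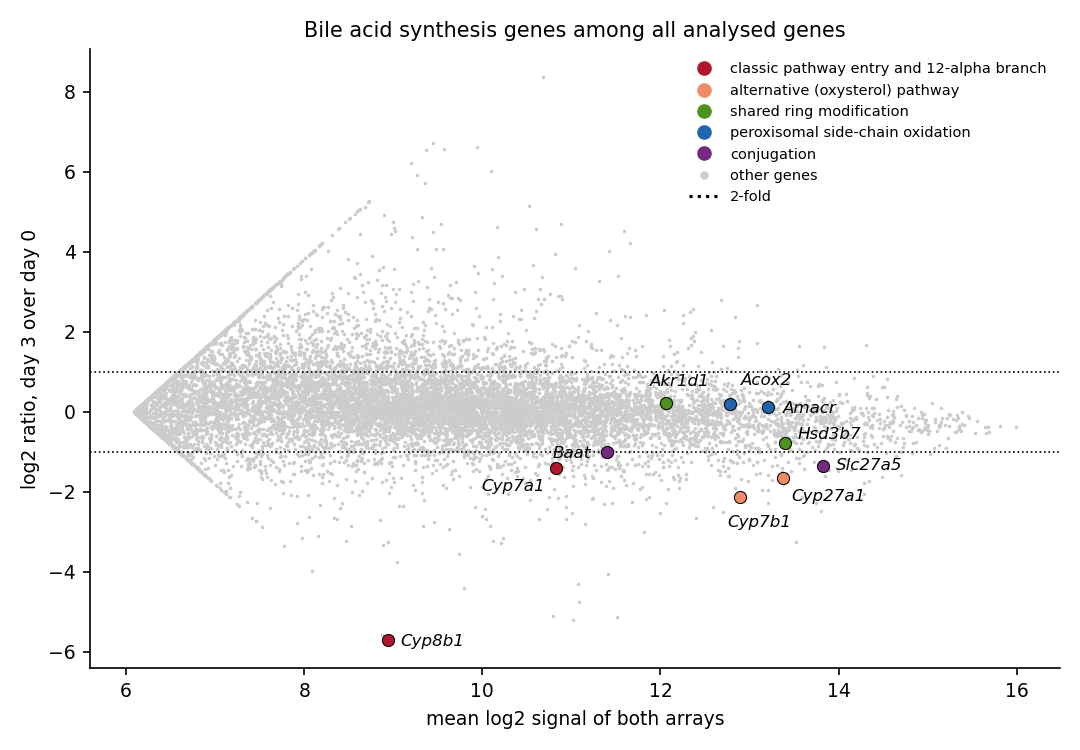
Log2 ratio (day 3 over day 0) against mean log2 signal of both arrays for all 12634 analysed genes, with the 10 bile acid genes in colour and dotted lines at 2-fold; the straight lower and upper edges on the left are genes under the floor on 1 array. Cyp8b1 is the lowest point of the plot, and Akr1d1, Acox2 and Amacr lie within the main cloud, with log2 ratios of 0.22, 0.19 and 0.12.

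The enzymes that finish the sterol ring differed by less than 2-fold. Hsd3b7, the microsomal dehydrogenase that acts on the 7-hydroxylated products of both pathways, read 14270.2 at day 0 and 8235 at day 3 (1.73-fold lower), and 9.28% of analysed genes had a lower ratio. Akr1d1, the 5-beta-reductase that gives bile acids their bent ring, read 3971 and 4612 (1.16-fold higher). Its second probe set read 1379 and 1768 (1.28-fold higher). The log2 ratios, 0.22 and 0.36, are close to the SD between probe sets.

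The peroxisomal side-chain enzymes were also close to their day 0 signal. Amacr, the racemase that prepares the side chain for oxidation, read 9074 and 9841 (1.08-fold higher). Acox2, the oxidase of branched side chains, read 6598 and 7551 (1.14-fold higher). Neither ratio exceeds the SD between probe sets. For 23 analysed genes of peroxisome assembly and other peroxisomal enzymes the median log2 ratio was −0.57, with 5 lower and 0 higher. The oxidase gene Acox3 was at least 2.95-fold lower, the reductase gene Decr2 2.46-fold and the membrane assembly gene Pex16 2.40-fold. With spike scaling the median of that group was −0.28, with 2 lower and 1 higher.

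Conjugation was represented by both of its enzymes. Slc27a5, the liver ligase that activates bile acids with coenzyme A, read 23234 at day 0 and 9070.0 at day 3 (2.56-fold lower). Baat, the transferase that attaches the amino acid, read 3821 and 1914, which is 1.996-fold lower and falls just short of the threshold. Its dimmer probe set read 381 and 234 (1.63-fold lower). Slc27a5 lies beyond the 2-fold line and Baat just short of it, so the different calls do not show that the 2 steps differ.

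Set side by side, the median log2 ratio was −3.55 for the classic pair (Cyp7a1, Cyp8b1), −1.90 for the alternative pair (Cyp27a1, Cyp7b1), −1.18 for conjugation (Slc27a5, Baat), −0.29 for the ring pair (Hsd3b7, Akr1d1) and 0.16 for the side-chain pair (Amacr, Acox2). The classic value rests on Cyp8b1: Cyp7a1 alone, at −1.41, lay above both genes of the alternative pathway. Each pair holds only 2 genes and 1 array a day, and no difference between pairs was tested.

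**Figure D3:**
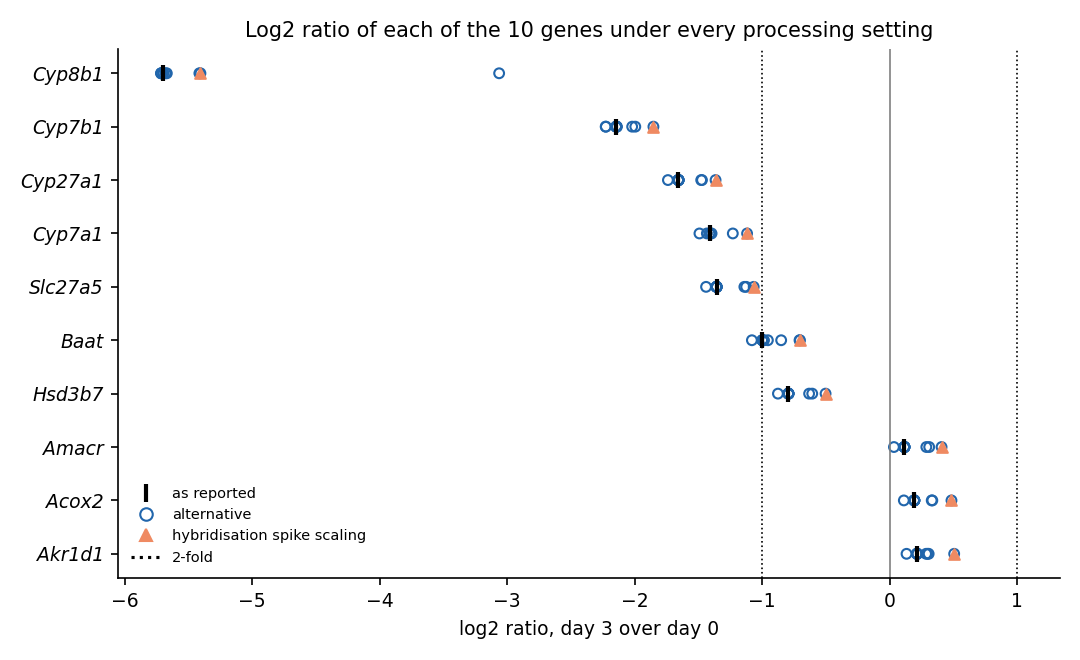
Log2 ratio (day 3 over day 0) of each of the 10 genes as reported (black bars) and under each alternative processing (open circles), with scaling to the hybridisation spikes as triangles and dotted lines at 2-fold. Cyp7b1, Cyp27a1, Cyp7a1 and Slc27a5 stay to the left of the 2-fold line, Baat lies across it from −1.08 to −0.70, and the isolated circle of Cyp8b1 at −3.06 is the floor at the 75th percentile.

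Other enzymes of the pathway mostly stayed within 2-fold. Of 12 analysed, 1 was lower, 1 higher and 10 neither, and the median log2 ratio was −0.41. Counts in this and the later gene groups stand beside 5.62% lower and 12.9% higher among all analysed genes. Cyp39a1, the hydroxylase of 24-hydroxycholesterol, was 4.13-fold higher, from 77.6 to 320.3. Cyp46a1, which makes that oxysterol chiefly in brain, read 336 at day 0 and 4.85 at day 3, at least 4.92-fold lower given the floor. The peroxisomal partners of Acox2 and Amacr, Hsd17b4 and Scp2, were 1.28-fold and 1.39-fold lower. Other probe sets of Scp2 had log2 ratios of −0.87 to 0.01. Cyp2c70, which makes muricholic acids in mice, had signals of 33075 and 29730 (log2 ratio −0.15, and 0.20 after quantile normalisation).

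Among 15 analysed regulators of bile acid synthesis, 2 were lower, 1 higher and 12 neither, and the median log2 ratio was −0.37. Nr1h4, which encodes the bile acid receptor FXR, read 5202 and 2584 (2.01-fold lower, and a log2 ratio of −0.94 after quantile normalisation and −0.72 with spike scaling, both short of 2-fold). Nr0b2, which encodes SHP, a repressor induced by FXR, read 4609 and 4693. Nr5a2 read 2421 and 2184 on its brightest probe set, with 3 others at log2 ratios of −0.62 to 0.54. Hnf4a, the hepatocyte receptor that activates Cyp7a1 and Cyp8b1, read 15423 and 11044 (1.40-fold lower) on its brightest probe set, with other probe sets at log2 ratios of −1.90 to −0.24.

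Outside FXR signalling, Ppara, the fatty acid receptor, was 3.58-fold lower and Prox1, a corepressor of hepatocyte genes, 2.23-fold higher. Prox1 had a log2 ratio of 0.88 after quantile normalisation, and 0 regulators were higher there or after loess. The receptor for the intestinal hormone FGF15 is made of Fgfr4, with signals of 899 and 814, and Klb, which was 1.69-fold lower. Other probe sets of Fgfr4 had log2 ratios of −0.47 to 0.16. Fgf15 itself was under the floor on both arrays (3.18 and 38.9).

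Genes of bile acid and sterol transport went both ways. Of 15 analysed, 5 were lower and 1 higher, and the median log2 ratio was −0.73. Slc10a1, the sodium-dependent bile acid importer NTCP, read 25776 and 5868 (4.39-fold lower), and Slco1a1 was 19.9-fold lower. At the canalicular membrane Abcb11, the bile salt export pump, read 8343 and 12969 (1.55-fold higher), the phospholipid exporter gene Abcb4 was 1.68-fold higher and the organic anion exporter gene Abcc2 1.71-fold higher. With spike scaling Abcb4 and Abcc2 passed 2-fold and 3 of 14 analysed genes were higher, as Slc51a was then under the floor. Abcg8, of the sterol exporter at the same membrane, was 4.18-fold lower. On the blood side Slc51b, a subunit of the basolateral exporter, read 51.7 and 575 (at least 8.43-fold higher), while its partner Slc51a stayed near the floor (79.4 and 68.1). Abcc3 was 2.79-fold lower and Abcc4 1.20-fold higher.

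**Figure D4:**
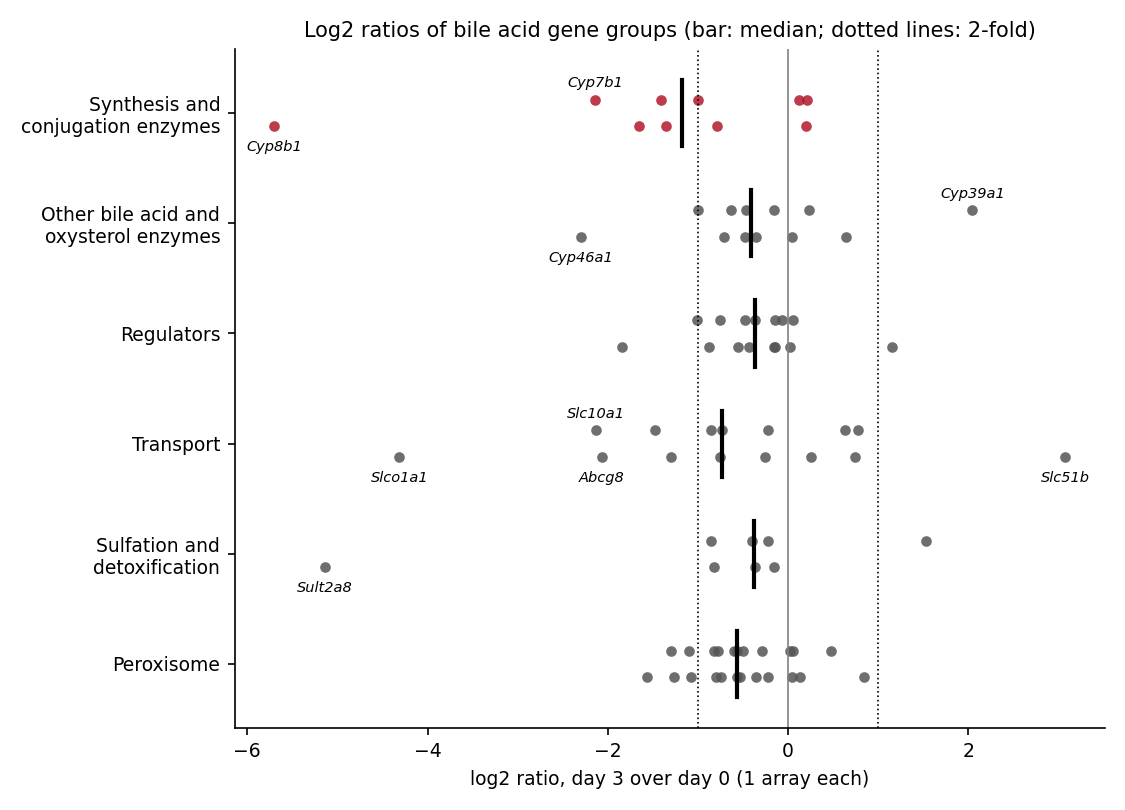
Log2 ratio (day 3 over day 0) of each analysed gene in 6 groups, the 10 synthesis and conjugation enzymes in red, with a black bar at each median and gene names where the log2 ratio is beyond 2 in either direction; Cyp8b1, Cyp46a1 and Slc51b are bounds set by the floor. The median of the red group is −1.18, and those of the other groups run from −0.73 (transport) to −0.37 (regulators).

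For sulfation and detoxification, 1 of 8 analysed genes was lower and 1 higher, with a median log2 ratio of −0.38. The shares among all analysed genes were 5.62% lower and 12.9% higher. Sult2a8, a sulfotransferase of bile acids, read 17290.0 and 491 (35.2-fold lower). Cyp3a13 was 2.89-fold higher. No difference between these groups and the 10 enzymes was tested.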

How the data were processed

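The authors deposited linear intensity values per probe set, produced by GCOS and MAS5 from 5 µg of total RNA per sample, per the submitters' processing notes and the labels' protocols. Neither their versions nor a scaling target is stated there. Both arrays had a mean of 500.0 after trimming 2% at each end, as scaling by 1 factor would give. The number of arrays, 1 a day, limits the precision, and detection calls were not used here.

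Array annotation named 34945 probe sets by 1 symbol and 932 by several, besides 64 controls. All 16 probe sets of the 10 genes matched the RefSeq table of GRCm38.p6 by Entrez ID. Signals were used without further scaling, floored at the higher array median, and a gene took its brightest probe set. The threshold was 2-fold. Genes under the floor on 1 array stand at their bound in medians. Proteins were not analysed here, and promoters of Cyp7a1, Cyp7b1, Amacr, Slc27a5 and Baat were not used here.

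The members and gene lists were chosen with earlier results of these data known. The text names all 10 genes, up to 3 genes of each list farthest past 2-fold in each direction, and a fixed set of regulators, transporters and enzymes; marker genes, the X- and Y-linked genes and genes set beside a result were named in addition. Alternatives changed the floor, the scaling, the choice of probe set and the threshold (13 settings). The steps were tested on simulated data in which only genes well above the floor were given changes. Bounds set by the floor were not tested in this way. Python 3.11.15, pandas 2.3.3 and statsmodels 0.14.6 were used.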

Additional observations from a re-analysis of the deposited data

How the results depend on the processing

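Across 13 alternatives the number of lower genes among the 10 stayed at 5 in most settings. It was 6 after median centring, where Baat passed 2-fold, and 4 of 9 when probe sets had to pass the floor on both arrays, which leaves out Cyp8b1. It was 7 at a 1.5-fold threshold and 2 at a 4-fold threshold (Cyp8b1 and Cyp7b1). In these settings, in the same order, 6.64%, 5.74%, 14.2% and 0.76% of all analysed genes were lower. No setting gave a higher gene. The median log2 ratio of the 10 ran from −1.38 without shared probe sets, which drops Hsd3b7 and Acox2, to −0.89 with spike scaling. Spike scaling moved the median of all genes from 0.08 to 0.36, and 3.10% of all genes were then lower and 19.6% higher, against 7.25% and 10.2% after quantile normalisation. None of the 10 genes changed sign in any setting run. With the floor at the 75th percentile Slc51b was higher by 0.44 on the log2 scale. The low signals of Cyp8b1 at day 3 and of Slc51b at day 0 allow bounds only. No paired analysis was possible because there was 1 array a day.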

Other observations

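Genes that deliver cholesterol to the mitochondria, where CYP27A1 acts, were mostly within 2-fold. Of 10 analysed, Stard4 was 2.80-fold lower and Stard5 2.60-fold lower, both carriers of cholesterol between membranes, and 0 were higher. The group's median log2 ratio was −0.14, and 0.19 with spike scaling.

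Cyp7a1 is known mainly from hepatocytes around the central vein. Of 11 pericentral genes 3 were lower and 1 higher (median log2 ratio 0.30, and −0.30 for a floor at the 75th percentile), against 2 lower and 3 higher with spike scaling, where the median was 0.59, and 3 lower and 0 higher after median centring. The glutamate transporter gene Slc1a2 was 8.86-fold lower, Cyp1a2 5.62-fold and the glutamine synthetase gene Glul 2.39-fold (log2 ratio −0.97 with spike scaling), while Lect2 was 2.04-fold higher (0.95 after median centring). The Wnt target genes Axin2 and Lgr5 of the same zone had log2 ratios of 0.56 and 0.30. Of 10 periportal genes 2 were lower, Hal 2.51-fold and Cyp2f2 2.05-fold (log2 ratio −0.71 after quantile normalisation and −0.75 with spike scaling, where 1 gene was lower), and 1 was higher, Hsd17b13 by 16.1-fold (its second probe set had a log2 ratio of −1.36).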
